A study of Mus musculus with 6 samples.

Results

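The FOS and JUN genes, Atf3 and Maff were followed across reperfused mouse hearts given dexmedetomidine or vehicle. The genes were chosen by name, as the rows for Fos, Fosb, Fosl1, Fosl2, Jun, Junb, Jund, Atf3 and Maff among the 37620 genes of the deposited count table. Earlier results of these data were known when they were chosen. Shares of members set beside shares of all genes are therefore descriptions, not tests. All 9 were found, and all 9 passed the filter on low counts together with 14738 genes in all. All libraries were made from RNA of the heart apex of C57/BL6J wild-type mice, whose myocardium was cut off from blood for 30 min (ischaemia) and perfused again for 120 min. In the dexmedetomidine group (3 libraries), the vehicle of yohimbine, an alpha-2 adrenergic antagonist, was given 30 min before dexmedetomidine at 10 µg/kg. Dexmedetomidine is an alpha-2 adrenergic agonist used as a sedative, and ischaemia surgery followed 20 min after it. In the vehicle group (3 libraries), the vehicles of yohimbine and of dexmedetomidine were given before surgery, with no times stated, and all infusions went into the tail vein within 10 min. The labels give neither age nor sex, name no sham-operated hearts in either group, and do not say that each library came from its own animal. P-values therefore measure the spread between these libraries.

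AP-1 is a dimer of basic leucine zipper proteins, most often 1 FOS and 1 JUN protein, that binds DNA at AP-1 and cAMP-response (CRE) sites. FOS proteins need a JUN partner, whereas JUN proteins can also pair with each other or with ATF proteins. Several of these genes are immediate early genes, which are transcribed within minutes of stretch, stress or growth signals without new protein synthesis, and myocardial ischaemia and reperfusion are known to induce them. Atf3 codes for a stress-induced zipper protein that represses transcription as a homodimer. Maff codes for a small MAF protein, which lacks an activation domain and pairs with proteins such as NRF2.

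The 150 bases before the start are shown for 6 of the genes, those with a CRE-type match. For Maff the start site with TGACGTCA is shown. Whether such matches bear on the levels was not tested. They come from RefSeq on GRCm38.p6, a later build than the mm9 used for the counts, and 8 of 9 genes matched an entry (Fosl1 did not). The windows are those of Fos (chr12:85473740-85473889, plus strand), Fosb (chr7:19310046-19310195, minus strand), Jun (chr4:95052223-95052372, minus strand), Junb (chr8:84978749-84978898, minus strand), Atf3 (chr1:191183334-191183483, minus strand) and the second of 3 start sites of Maff (chr15:79347370-79347519, plus strand). Each is written 5′ to 3′ in the direction of the gene, and capitals mark matches to the CRE half-site TGACG or the CRE-like site TGACNTCA on either strand.
Fos: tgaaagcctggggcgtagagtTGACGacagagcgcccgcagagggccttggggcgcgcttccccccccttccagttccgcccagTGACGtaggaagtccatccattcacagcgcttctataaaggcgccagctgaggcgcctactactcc
Fosb: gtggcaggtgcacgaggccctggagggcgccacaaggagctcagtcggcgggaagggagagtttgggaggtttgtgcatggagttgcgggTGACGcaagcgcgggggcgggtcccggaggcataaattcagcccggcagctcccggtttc
Jun: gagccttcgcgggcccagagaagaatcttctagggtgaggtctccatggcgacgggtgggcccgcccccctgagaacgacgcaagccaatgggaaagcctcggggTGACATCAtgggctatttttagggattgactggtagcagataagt
Junb: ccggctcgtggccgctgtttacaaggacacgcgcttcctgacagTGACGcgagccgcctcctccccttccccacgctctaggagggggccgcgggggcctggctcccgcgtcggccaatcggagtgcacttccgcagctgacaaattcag
Atf3: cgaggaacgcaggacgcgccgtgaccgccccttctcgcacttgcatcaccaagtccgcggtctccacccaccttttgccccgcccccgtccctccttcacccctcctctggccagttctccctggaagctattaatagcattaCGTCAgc
Maff: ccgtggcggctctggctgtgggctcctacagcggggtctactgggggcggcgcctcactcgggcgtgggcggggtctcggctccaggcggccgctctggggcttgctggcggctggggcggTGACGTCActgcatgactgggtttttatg

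Both strands of the 250 bases before each start were searched. TGACG was found for 5 of the 8 genes (Fos, Fosb, Junb, Atf3 and Maff). With the 3 start sites of Maff the 8 genes have 10 windows, of which 6 held a match. Of 32817 windows of the same length, 17.7% held TGACG. Fos held it at 129 and 66 bases before the start, Fosb at 60, Junb at 106 and Atf3 at 7 on the opposite strand. Jun held no TGACG, but the CRE-like TGACATCA at 45 bases before the start. The full palindrome TGACGTCA, which contains TGACG on each strand and is itself a match to TGACNTCA, occurred for Maff alone among the 8 genes. It was in 1 of the 10 windows and in 1.55% of all windows. TGACNTCA occurred for Jun and Maff, in 3 of the 10 windows and in 7.49% of all windows. TATAAA occurred for Fos alone, in 1 of the 10 windows and in 12.4% of all windows. The AP-1 site TGANTCA (6.75% of windows) and the CArG box of serum response factor (1.47%) were not matched in any of these windows. Bases further upstream were not searched, so these sites may lie there. The windows of Fosl2 and Jund matched none of the 6 motifs. A match describes letters in the window only, and binding was not measured.

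Each library held 50.3 M to 56.6 M counts in genes after vehicle and 42.7 M to 48.6 M after dexmedetomidine. Even the least abundant of the 9 genes, Fosl1, was thus counted 34 to 352 times. Levels are given as CPM, counts per 1e6 of the library size after TMM scaling (a factor per library that aligns most genes), and levels compared between genes as FPKM, which is CPM per kilobase of the deposited gene length. Transcripts of the mitochondrial genome took up 22% to 25.2% of counts after vehicle and 27.1% to 38.2% after dexmedetomidine. Levels also followed GC content differently in each library. Each gene's log2 level minus its mean over all libraries was fitted on GC content, so the signs are relative between libraries. The slope was 0.459 per 10 percentage points in vehicle replicate 2 and 0.121 and 0.201 in the other vehicle libraries. In the dexmedetomidine libraries it was -0.0942 to -0.396. All 10 cardiomyocyte markers were above 0 in each library. Their summed level was 58943 to 69144 CPM after vehicle, highest in vehicle replicate 2, and 54363 to 57026 after dexmedetomidine. Summed smooth muscle and pericyte markers (8 of 8 above 0) lay at 1266 to 1429 CPM and 1628 to 1914 CPM, and fibroblast markers (8 of 8) at 1001 to 1096 and 1184 to 1409. Endothelial markers (8 of 8; 1125 to 1265 and 1119.6 to 1182), macrophage markers (8 of 8; 285 to 306 and 246 to 347) and neutrophil markers (8 of 8; 66.9 to 128 and 50.8 to 205) overlapped between the groups. Lymphocyte (7 of 8), erythroid (5 of 7), adipocyte (0 of 6), mesothelial (1 of 5) and nerve markers (4 of 6) were lower or partly at 0, and their groups overlapped too. Erythroid markers reached 723 CPM, and mesothelial markers were highest in vehicle replicate 2, at 30.4 CPM against at most 14.1 after dexmedetomidine. Of the atrial markers 3 of 6 were above 0 throughout and Bmp10 was at 0 in each library. Summed atrial markers lay at 43.4 to 50.3 CPM after vehicle and 43.9 to 99.9 CPM after dexmedetomidine. The part of these differences in the values below was not tested, and in bulk tissue a change in the number of cells of a type and a change in RNA per cell cannot be told apart.

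All 9 genes were at their highest in the same library, vehicle replicate 2, which was the highest library for 26.1% of tested genes. The SD of the vehicle libraries exceeded the difference between the group means for 7 members, all but Fosl1 and Jund. All 9 fitted log2 fold changes (dexmedetomidine minus vehicle) were below 0, with a median of -1.17, while the median over all tested genes was 0.00 and 49.7% of genes were below 0. No member passed an adjusted p of 0.05 in edgeR's quasi-likelihood test (0% of all genes did). Junb was the only member whose groups did not overlap, a share of members close to the 12% of tested genes that were lower without overlap. Without vehicle replicate 2 the median was -0.42, Fos stood at 0.16 and Jun at 0.07. Without vehicle replicate 3, by contrast, 5 of 9 members passed, all lower, where 2.19% of genes were called lower and 6.13% higher.

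**Figure D1:**
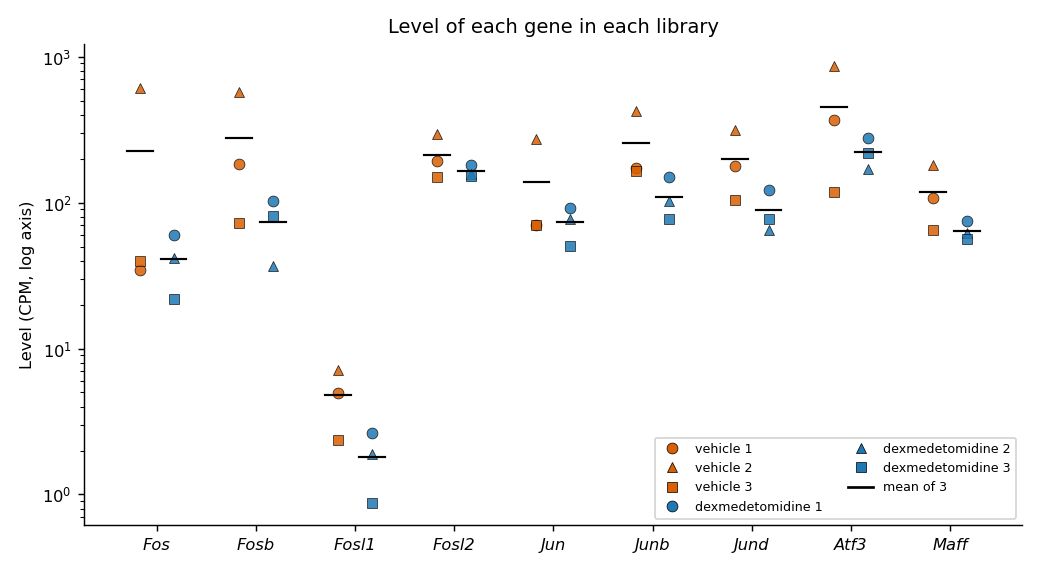
Level of the 9 genes in each library in CPM on a log axis, vehicle in orange and dexmedetomidine in blue, with 1 marker shape per replicate number and a bar at the mean of 3. Vehicle replicate 2 (orange triangle) is the highest of the 6 libraries for all 9 genes, and Fosl1 lies far below the others.

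Values of each gene follow in the order of replicates 1, 2 and 3. Fos, the founding member of its family and a short-lived transcript, stood at 34.3, 608 and 39.9 CPM after vehicle and 60.2, 42 and 21.8 CPM after dexmedetomidine. A single library carried the vehicle mean of 228 ± 329.9 CPM, since the other vehicle libraries lay inside the dexmedetomidine range (41.3 ± 19.2 CPM, SD, n = 3 each). The log2 fold change of Fos was -2.46 (SE 1.35, edgeR adjusted p = 0.368), the largest in size among the 9 genes and also the one with the largest error. DESeq2 gave Fos no p-value.

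Fosb codes for FosB and, by alternative splicing, for the long-lived truncated form ΔFosB, which counts per gene do not separate. It measured 184, 576 and 72.8 CPM after vehicle and 102, 36.6 and 80.8 CPM after dexmedetomidine. Vehicle replicates 1 and 2 lay above each dexmedetomidine library, and vehicle replicate 3 lay among them. Its log2 fold change was -1.93 (SE 0.77, edgeR adjusted p = 0.216).

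Fosl1 and Fosl2 code for the FOS-related antigens FRA-1 and FRA-2, which lack the strong activation domain of c-Fos. Fosl1 stood at 4.92, 7.09 and 2.35 CPM after vehicle and 2.65, 1.9 and 0.873 CPM after dexmedetomidine. Only vehicle replicate 3 and dexmedetomidine replicate 1 kept its groups from separating. The log2 fold change of Fosl1 was -1.39 (SE 0.48, edgeR adjusted p = 0.149). Fosl2 varied least of the 9 genes, at 194, 296 and 149 CPM after vehicle and 182, 156 and 153 CPM after dexmedetomidine. Its lowest and highest libraries, both of the vehicle group, were 1.98-fold apart, against 27.9-fold for Fos. Fosl2 had the smallest difference between groups as well (log2 fold change -0.38, SE 0.23, edgeR adjusted p = 0.369).

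Jun, the partner for which the c-Fos and c-Jun dimer is best known, shared the pattern of Fos. Jun measured 70.3, 274 and 69.9 CPM after vehicle and 92.1, 77.8 and 50.8 CPM after dexmedetomidine. As for Fos, vehicle replicates 1 and 3 lay within the dexmedetomidine range. Its log2 fold change was -0.91 (SE 0.54, edgeR adjusted p = 0.374).

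Junb, a JUN protein with weaker activity than c-Jun that can oppose it, was the member with the least overlap. It stood at 174, 425 and 164 CPM after vehicle and 150.3, 102 and 77.4 CPM after dexmedetomidine. The lowest vehicle library therefore lay above the highest dexmedetomidine library, a pattern seen in this direction for 12% of tested genes. The means were 254 ± 148 and 109.9 ± 37.1 CPM (SD, n = 3 each), a 2.31-fold difference (log2 fold change -1.21, SE 0.39, edgeR adjusted p = 0.143).

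Jund, the JUN gene that is broadly expressed without a stimulus, stood at 179, 313 and 104 CPM after vehicle and 123, 65.3 and 77.3 CPM after dexmedetomidine. Vehicle replicate 3 lay below dexmedetomidine replicate 1, so the groups overlapped by that pair of libraries. The difference was 2.24-fold (log2 fold change -1.17, SE 0.39, edgeR adjusted p = 0.146). Jund has the highest GC content of the members, 67.1% of its longest transcript, followed by Junb with 62.6%, and the others lie between 51.9% and 58.5%.

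Atf3 stood at 366, 866 and 118 CPM after vehicle, a 7.33-fold range that was exceeded by those of Fos (17.7-fold) and Fosb (7.92-fold). After dexmedetomidine Atf3 stood at 276, 170.1 and 218 CPM. The 3 dexmedetomidine libraries all lay between the lowest and the second highest vehicle library. The log2 fold change of Atf3 was -1.02 (SE 0.60, edgeR adjusted p = 0.369).

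Maff measured 107, 181 and 64.6 CPM after vehicle and 74.5, 61.5 and 56 CPM after dexmedetomidine. Like Jund, it overlapped only through vehicle replicate 3 and dexmedetomidine replicate 1. Its log2 fold change was -0.87 (SE 0.33, edgeR adjusted p = 0.177).

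**Figure D2:**
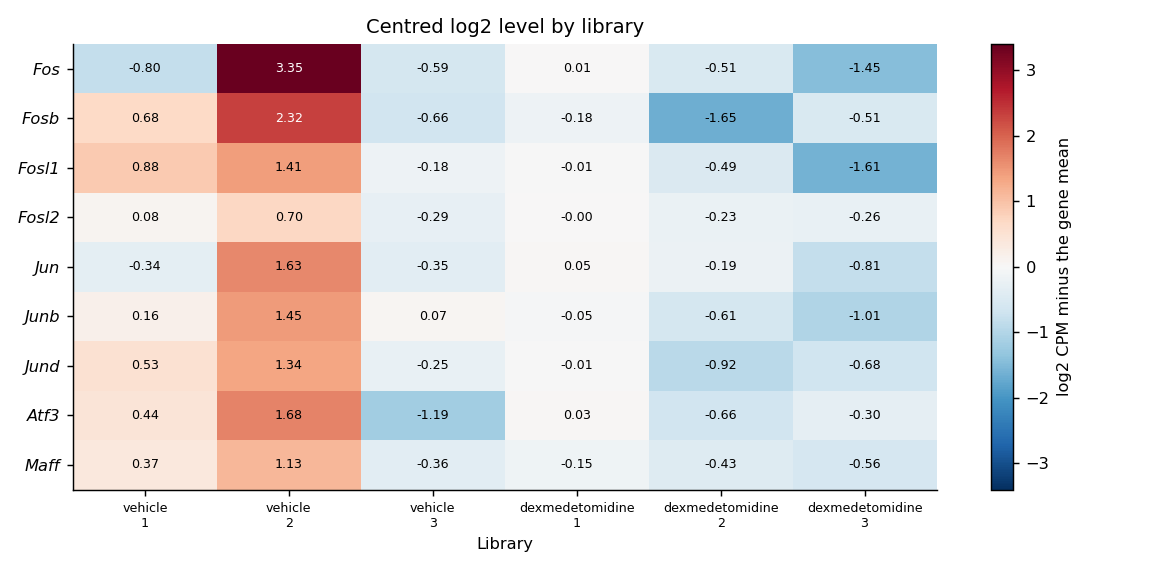
Log2 CPM of each gene minus its mean over the 6 libraries, with genes as rows and libraries as columns (red above, blue below the gene's mean). Vehicle replicate 2 is between 0.70 (Fosl2) and 3.35 (Fos) above the mean, and vehicle replicate 1 is above the mean for 7 genes but below it for Fos (-0.80) and Jun (-0.34).

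Within the vehicle group the 9 genes fell into different patterns. Vehicle replicate 1 was second highest of the 6 libraries for 7 members (Fosb, Fosl1, Fosl2, Junb, Jund, Atf3 and Maff), but ranked 4 of 6 for Jun and 5 of 6 for Fos. Vehicle replicate 1 exceeded vehicle replicate 3 by 3.09-fold for Atf3, 2.53-fold for Fosb, 2.09-fold for Fosl1, 1.71-fold for Jund and 1.66-fold for Maff. The same ratio was 0.86 for Fos, 1.01 for Jun and 1.06 for Junb. Between the lowest and highest dexmedetomidine library the ratio was 2.75 for Fos, 1.62 for Atf3, 1.19 for Fosl2 and 3.03 for Fosl1, against 17.7, 7.33, 1.98 and 3.02 between the lowest and highest vehicle library. Dexmedetomidine replicate 3 was the lowest library for 5 of the 9 members, against 20.2% of tested genes.

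The height of vehicle replicate 2 was also read against the highest of the other 5 libraries. By this ratio Fos ranked first among 12330 genes with a mean of at least 1 CPM, at 10.1-fold. Fosb stood at 3.12-fold, Jun at 2.98-fold, Junb at 2.45-fold and Atf3 at 2.37-fold. These 5 members were above 2-fold, as were 51 genes in all (0.414%). Jund (1.75-fold), Maff (1.69-fold) and Fosl2 (1.53-fold) were above 1.5-fold, the latter threshold being passed by 8 of 9 members and by 1.45% of genes. Fosl1 stood at 1.44-fold. After each library's trend with GC content and length had been removed, Fos was still at 599.9 CPM in vehicle replicate 2 and at 22.7 to 58.9 CPM in the others.

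**Figure D3:**
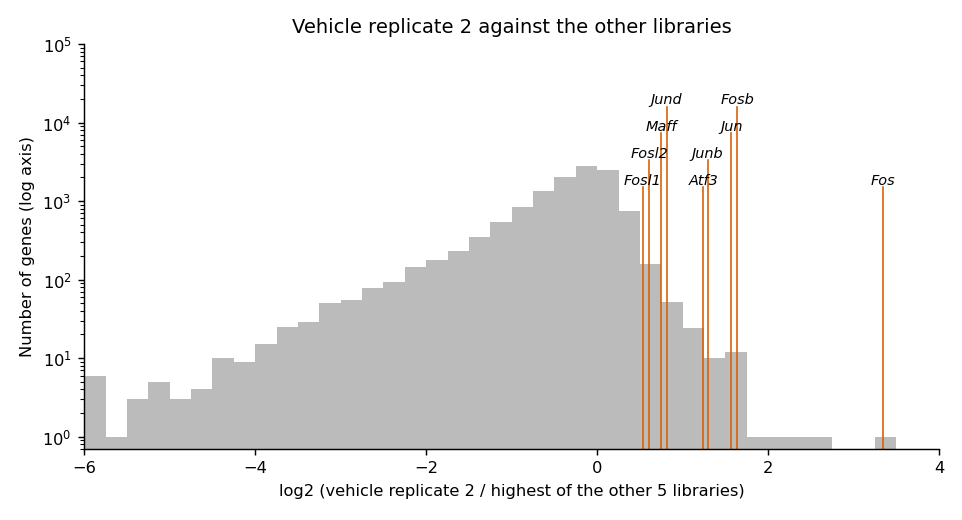
Distribution over 12330 genes of the log2 ratio of vehicle replicate 2 to the highest of the other 5 libraries (number of genes on a log axis; values below -6 are in the lowest bin), with the 9 members marked by orange lines. All 9 lie to the right of 0, from 0.53 for Fosl1 to 3.34 for Fos.

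Per length, Atf3 was the most abundant member in both groups, at 227 ± 192 FPKM after vehicle and 112 ± 26.7 after dexmedetomidine (SD, n = 3). Junb followed with 141 ± 81.8 and 60.8 ± 20.5 FPKM. In the dexmedetomidine group each Atf3 value lay above each Junb value, whereas in the vehicle group the ranges of these genes overlapped. After dexmedetomidine the next genes in order were Jund (30.8 ± 10.6 FPKM), Maff (30.2 ± 4.47), Fosl2 (28 ± 2.75), Jun (23.1 ± 6.57), Fosb (19.5 ± 8.84) and Fos (17.6 ± 8.15), each overlapping its neighbour, so their order is not resolved. After vehicle the means ran from Fos (96.7 ± 140.2 FPKM) and Fosb (74 ± 70.5) through Jund (69.1 ± 36.8), Maff (55.4 ± 27.7) and Jun (43.3 ± 37) to Fosl2 (36.4 ± 12.9), again with overlap between all neighbours. The place of Fos rested on 1 library, since its median there was 16.9 FPKM. Fosl1 was apart from all others in both groups, at 2.8 ± 1.39 and 1.06 ± 0.521 FPKM.

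The makeup of the family differed in vehicle replicate 2 as well as its total. The 4 FOS genes made up 32.9% of the summed FPKM of the 9 genes in that library and 19.4% to 20.9% in the other 5. Fos itself took 18.2% there against 2.83% to 6.52% elsewhere. Atf3 made up 30.8% in vehicle replicate 2, 35.8% and 19.7% in vehicle replicates 1 and 3, and 31.3% to 39.4% after dexmedetomidine. In vehicle replicate 3 Junb was the leading gene with 30%. The summed level was 515, 1419 and 302 FPKM after vehicle and 414, 274 and 279.6 FPKM after dexmedetomidine.

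**Figure D4:**
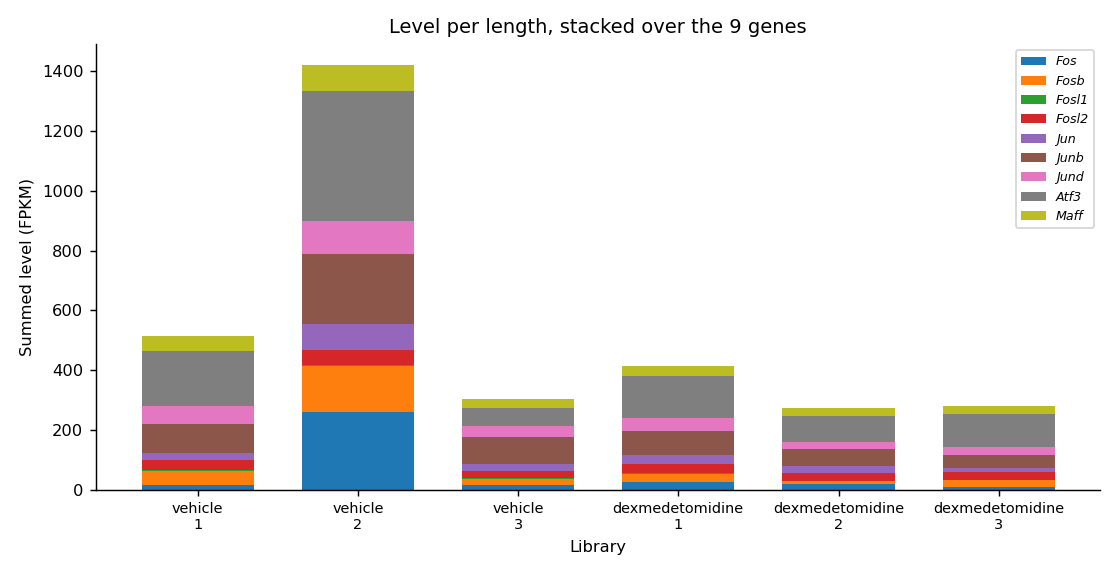
FPKM of the 9 genes stacked by library, each colour 1 gene. The bar of vehicle replicate 2 reaches 1419 FPKM, the other vehicle libraries 302 and 515, and the dexmedetomidine libraries 274 to 414, with the Fos part (bottom) large only in vehicle replicate 2.

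Against this spread, the comparison of the groups depended on which vehicle libraries entered it. With all 6 libraries, 5 members (Fosb, Fosl1, Junb, Jund and Maff) had an unadjusted p under 0.05 in edgeR, all lower after dexmedetomidine, as had 9.03% of tested genes in that direction. A further 12.5% of genes were higher by that measure, and the split of all genes turned with offsets for GC content and length, to 8.1% lower and 4.67% higher, with Fosl1 and Junb among the lower. None of the 9 passed after adjustment over all genes. DESeq2 called Fosl1 and Maff lower (adjusted p = 0.027 and 0.0331, against 2.95% of its genes called lower). Limma-voom with quality weights called Fosl1 and Jund lower (adjusted p = 0.0395 and 0.0387, against 5.2% of genes). Limma gave vehicle replicates 1, 2 and 3 weights of 2.43, 0.546 and 0.529 and the dexmedetomidine libraries 0.656, 1.57 and 1.38. In that fit the log2 fold change of Fos was -0.63 and that of Jun -0.34.

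Without vehicle replicate 2 no member passed in edgeR (0% of genes did), and 7 of 9 had values below 0 (49.5% of genes). Junb and Jund kept an unadjusted p under 0.05 (0.0262 and 0.0469, against 5.14% of genes lower by that measure), at log2 fold changes of -0.62 (SE 0.23) and -0.68 (SE 0.29). The values of Fosl1, Fosb and Maff were -1.0 (SE 0.46), -0.82 (SE 0.46) and -0.42 (SE 0.21). Atf3, at -0.13 (SE 0.41), and Fosl2, at -0.07 (SE 0.15), were within their errors of 0. Fos at 0.16 (SE 0.34) and Jun at 0.07 (SE 0.21) were on the other side of 0 and within their errors of it. The only member whose remaining libraries did not overlap was Junb, as for 14.9% of tested genes in this direction.

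Without vehicle replicate 3, Atf3, Fosl1, Junb, Jund and Maff were called lower. Their edgeR adjusted p were 0.0256, 0.0347, 0.0391, 0.0198 and 0.0164, and 2.19% of tested genes were called lower in that fit. The log2 fold changes were -1.48 (SE 0.31) for Atf3, -1.47 (SE 0.29) for Jund and -1.17 (SE 0.21) for Maff. Fosb, at -2.38 (SE 0.56), just missed the threshold (edgeR adjusted p = 0.0545). Groups then did not overlap for 7 of 9 members, all but Fos and Jun, against 22.4% of tested genes in this direction. Leaving out dexmedetomidine replicate 1 gave 4 members without overlap (Fosl1, Junb, Jund and Maff, against 22.3% of genes).

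**Figure D5:**
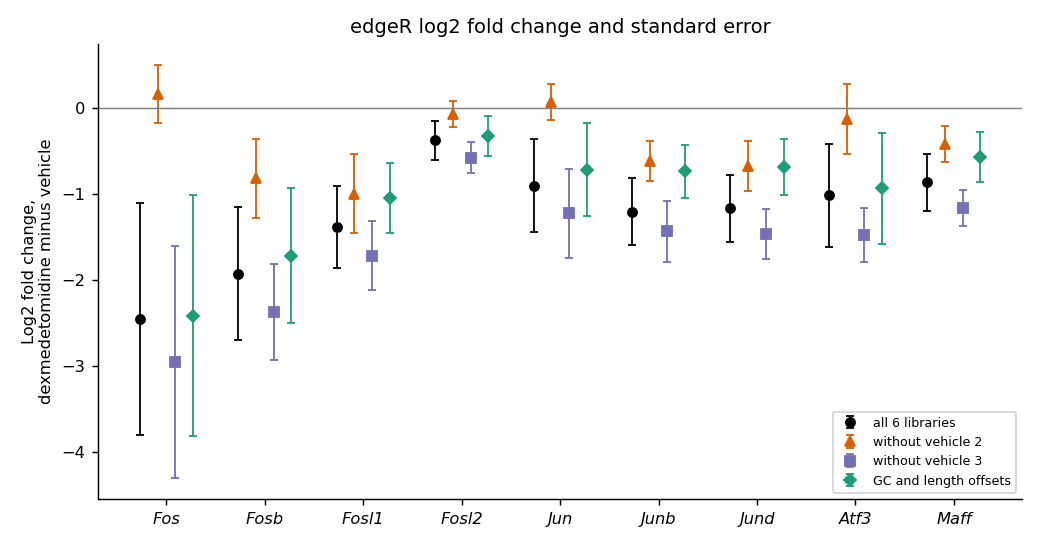
EdgeR log2 fold change (dexmedetomidine minus vehicle) of each gene, with bars of 1 standard error, for all 6 libraries (black), without vehicle replicate 2 (orange), without vehicle replicate 3 (purple) and with offsets for GC content and length (green). Fos and Jun are above 0 without vehicle replicate 2, at 0.16 and 0.07, and the other 34 values lie below 0.

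The values of all 9 members were closer to 0 when each library's trend with GC content and length was removed. For Junb and Jund, the members richest in GC, log2 fold changes of -1.21 and -1.17 became -0.74 (SE 0.31) and -0.69 (SE 0.33). The groups of Junb then overlapped, with dexmedetomidine replicate 1 at 144 CPM and vehicle replicate 3 at 143 CPM. Fos stood at -2.42, Fosb at -1.72, Atf3 at -0.94, Jun at -0.72, Maff at -0.57 and Fosl2 at -0.33. Fosl1 was at -1.05 (SE 0.41). All 9 remained below 0 (55.8% of genes were), with a median of -0.74 (-0.04 over all genes), and none passed (edgeR adjusted p from 0.332 for Fosl1 to 0.633 for Jun). Overlapping genes add an uncertainty, since the use of strand in counting is not stated. In GENCODE M21, Prdx2 overlaps Junb on the opposite strand and stood at 209 to 273 CPM, and Junos overlaps Jun and stood at 0.898 CPM or lower. Fosl1 is overlapped by Ccdc85b, Jund by Gm11175 and Atf3 by Gm24748, the latter pair with 0 counts in each library.

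Other genes of the pathway were read in the same fit, in which none passed the adjusted threshold. Without vehicle replicate 3, edgeR called 3 of the zipper partners (2 lower), 1 of the kinases (lower), 3 of the promoter factors (2 lower) and 3 of the targets (all lower), against 2.19% of genes called lower and 6.13% called higher. Of the other zipper proteins that pair with FOS, JUN, ATF or MAF proteins, 18 of 19 were tested, 12 with a log2 fold change below 0 and 6 above (median -0.17). By unadjusted p under 0.05, 3 were lower and 2 higher, against 9.03% and 12.5% of all genes. DESeq2 called 1 lower and 2 higher (2.95% and 6.61% of its genes), and limma-voom 3 lower and 2 higher (5.2% and 8.79%). Creb1, a CRE-binding activator, had a log2 fold change of 1.15 (SE 0.28, edgeR adjusted p = 0.108), which was 0.42 with the GC and length offsets. It stood at 13.8, 7.7 and 18.6 CPM after vehicle and 31.4, 27.2 and 30.5 CPM after dexmedetomidine. Atf2, another CRE-binding partner of JUN, was at 0.76 (SE 0.20) and at 0.05 with the offsets. Jdp2, a repressor that dimerises with JUN, was at -0.67 (SE 0.18), and Mafk, a small MAF like Maff, at -0.61 (SE 0.23). With the offsets they were at -0.39 and -0.38, and without vehicle replicate 2 Mafk was at -0.35.

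Of 18 kinases that phosphorylate AP-1 proteins or lie upstream, 9 had values below 0 and 9 above (median -0.00). In edgeR 4 were lower and 4 higher by unadjusted p under 0.05, against 9.03% and 12.5% of all genes. DESeq2 called 1 higher (6.61% of its genes), and limma-voom 3 lower and 1 higher (5.2% and 8.79% of genes). The smallest p belonged to Map3k7, the kinase TAK1, at 0.44 (SE 0.12, edgeR adjusted p = 0.112), followed by Mapkapk2 at -0.42 (SE 0.14), Map2k2 at -0.45 (SE 0.16) and Map2k3 at -0.46 (SE 0.18). With the GC and length offsets these 4 were at 0.14, -0.15, -0.09 and -0.32. Of 11 transcription factors known to act on FOS and JUN promoters, 6 were below 0 and 5 above (median -0.14). By unadjusted p under 0.05, 1 was lower and 1 higher, against the same 9.03% and 12.5% of all genes. DESeq2 called 1 of them higher (6.61% of its genes), as did limma-voom (8.79% of genes). Srf, serum response factor, shared the height in vehicle replicate 2, at 208 CPM against 136 and 97.3 CPM in the other vehicle libraries and 90 to 123 CPM after dexmedetomidine (log2 fold change -0.53, SE 0.26). Its value was -0.20 without that library and -0.07 with the GC and length offsets. Mef2a was at 0.92 (SE 0.23, edgeR adjusted p = 0.109), Mef2d at -0.26 (SE 0.12) and Mef2c at 0.35 (SE 0.17). With the GC and length offsets these 3 were at 0.42, -0.12 and -0.29, Mef2c thus on the other side of 0, and without vehicle replicate 2 Mef2c was at 0.19.

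Among 24 textbook AP-1 target genes, 23 were tested, 15 with values below 0 and 8 above (median -0.15). By unadjusted p under 0.05, 4 were lower and 1 higher, against 9.03% and 12.5% of all genes. DESeq2 called 1 lower and 1 higher (2.95% and 6.61% of its genes), and limma-voom 2 lower and 1 higher (5.2% and 8.79%). Vehicle replicate 2 was the highest library for 11 of the 23, against 26.1% of tested genes. It was also the highest for 10 of the 18 tested zipper partners, 6 of the 11 promoter factors and 4 of the 18 kinases. Plaur, the urokinase receptor gene, stood at 22.6, 49.3 and 28.6 CPM after vehicle and 19.6, 21.8 and 17.6 CPM after dexmedetomidine. Plaur was the 1 target of 23 that was lower without overlap of its groups, against 12% of tested genes. Its log2 fold change was -0.77 (SE 0.27), and -0.38 without vehicle replicate 2. Hmox1, which codes for haem oxygenase 1, was at -1.08 (SE 0.39) and at -0.61 without vehicle replicate 2. Tgfb1, the gene of a growth factor that drives fibrosis, was at -0.63 (SE 0.23). Mmp3, a matrix metalloproteinase gene, lay in the other direction at 0.64 (SE 0.17, edgeR adjusted p = 0.109). It stood at 5.41, 5.4 and 5.41 CPM after vehicle and 8.29, 8.85 and 8.14 CPM after dexmedetomidine.

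The genes with the profile most like that of Fos over the 6 libraries were found by the root-mean-square distance between centred log2 CPM, among 11629 named genes. These were Hspa1a (distance 0.51), Otud1 (0.67), Dnajb1 (0.68), Hspa1b (0.74) and Nr4a1 (0.78). Hspa1a and Hspa1b, which code for inducible HSP70 and are near-identical copies with uncertain counts, reached 767 and 1023 CPM in vehicle replicate 2 and at most 118 and 183 CPM elsewhere. Nr4a1, an orphan nuclear receptor gene, stood at 60.6, 208 and 40.1 CPM after vehicle and 47.1, 29.4 and 32.3 CPM after dexmedetomidine. Profiles nearest to Jund were much closer, namely Rrad (0.13), Cbarp (0.18), Prr7 (0.18), Csrnp1 (0.20) and Lmna (0.20). Rrad, a small GTPase gene, stood at 604, 1202 and 382 CPM after vehicle and 407, 235 and 226 CPM after dexmedetomidine. Its groups overlapped by the same pair of libraries as those of Jund, which follows from the choice by profile. None of these 10 genes passed in edgeR, where no gene did with all libraries (adjusted p from 0.13 for Rrad to 0.627 for Dnajb1 and Hspa1b).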

How the data were processed

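Messenger RNA was sequenced in 3 vehicle and 3 dexmedetomidine libraries. Per the labels, 1 µg of RNA was selected on poly-T beads and prepared with a NEBNext Ultra kit. The deposited values are raw counts per gene, with gene lengths in bases. Trim Galore, HTSeq and build mm9 are named in the submitters' processing notes, and tool versions, aligner, annotation and strand setting were not given in the sources used here. HTSeq's summary rows were left out. Reads with multiple alignments were 28% to 31.4% of the total after vehicle and 31.2% to 39.5% after dexmedetomidine. Reads in no gene were 2.33% to 3.63% and ambiguous ones 1.83% to 2.37%. No 2 libraries agreed within sampling noise (chi-square per degree of freedom 29 to 446).

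Symbols (32897 of 37620 identifiers) and GC content of the longest transcript came from GENCODE M21. EdgeR 4.0.16 in R 4.3.3 (filterByExpr, TMM, robust quasi-likelihood F test) was fitted to the whole table, with Benjamini-Hochberg adjustment over 14738 genes and a threshold of 0.05. Standard errors were derived from the coefficient and F. DESeq2 1.42.0, limma-voom (limma 3.58.1), other scalings and filters, GC and length offsets (splines of 5 degrees of freedom per library), a replicate block and leaving out each library were alternatives. Fits were tested on simulated counts. The replicate numbers were not treated as pairs. The 9 members, the 4 other gene lists and the marker lists were chosen with earlier results of these data known. Genes named were all members, the 4 with the smallest p of each other list, and the 5 nearest in profile to Fos and to Jund.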

Additional observations from a re-analysis of the deposited data

How the results depend on the processing

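Of 134 values of single members under alternatives, 132 were lower after dexmedetomidine, and 10 passed the threshold that none passed with all libraries in edgeR. The exceptions in direction were Fos (0.16) and Jun (0.07) without vehicle replicate 2, and with 1 library left out these genes ranged from -2.97 to 0.16 and from -1.23 to 0.07. EdgeR called no gene with all libraries (3172 had an unadjusted p under 0.05, 1331 of them lower). It called 406 with no filter, DESeq2 1272 and limma-voom 2063, and between 0 and 1251 when 1 library was left out, 1251 without vehicle replicate 3, 7 without dexmedetomidine replicate 1 and 5 without dexmedetomidine replicate 2. With the GC and length offsets 1883 genes were under that unadjusted p, 1194 of them lower. Members called were 2 in DESeq2, 2 in limma-voom and 0 to 5 with 1 library left out, 5 without vehicle replicate 3. The members' median log2 fold change ran from -1.48 (without dexmedetomidine replicate 1) to -0.42 (without vehicle replicate 2) with 1 library left out. Members without overlap numbered 0 with the GC and length offsets, for which the share of all genes was not computed. They numbered 1 to 7 with 1 library left out. Without vehicle replicate 2 there was 1, against 14.9% of tested genes lower without overlap. Without vehicle replicate 3 there were 7, against 22.4% of tested genes. The filter at a mean of 5 CPM removed Fosl1. The cause of these differences was not tested. Same-numbered libraries of the groups did not deviate together throughout (correlations -0.0546, 0.0323 and 0.156 for replicates 1, 2 and 3), and not every library correlated best with its own number. With the replicate block, edgeR called 636 genes (67 lower) and 1 member, Fosl1 (adjusted p = 0.0332, lower), and the members' median was -1.06. With the replicate block and the GC and length offsets it called 181 genes and 0 members.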
